A study of Mus musculus with 7 samples.

Results

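Injured intestinal epithelium can take up a gene programme that resembles the fetal gut, and 9 genes often used to recognise that state were followed here in sorted Paneth cells (PCs) of mice injected with the cytokine TNF (tumour necrosis factor). The genes were Ly6a, Clu, Anxa1, Anxa2, Anxa3, Ccn1, Ccn2, Il33 and S100a6, chosen by name out of the 55414 gene identifiers of the count table. All 9 were found, and 8 of them had enough counts to be tested, among 14329 tested genes. The mice were of the C57BL/6J strain, received either TNF or phosphate-buffered saline (PBS), and had their small intestine taken 15 h later, after which PCs were purified with a cell sorter. The groups held 3 PBS and 4 TNF libraries of total RNA, each from a mouse of its own. The sources used here do not state the dose and route of TNF, the age and sex of the mice or the surface proteins used for sorting.

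In the adult crypt, stem cells that carry Lgr5 renew the epithelium and neighbouring PCs secrete antimicrobial proteins and niche signals. When radiation, infection or inflammation damages the crypt, surviving epithelial cells can lower stem cell genes and raise genes of the fetal epithelium, among them Ly6a and the annexins. The co-activators YAP and TAZ, which are kept out of the nucleus by the Hippo kinases and act through the TEAD family of DNA-binding proteins, are known to be needed for this state in several injury models, and Ccn1 and Ccn2 are their textbook targets. Il33 belongs to the same repair vocabulary as an alarmin, a nuclear cytokine set free by damaged cells.

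Promoter sequence from RefSeq (build GRCm38.p6) could be matched to 5 of the 9 genes, Anxa1, Anxa2, Ccn1, Il33 and S100a6, and was not matched for Ly6a, Clu, Anxa3 and Ccn2. Each window holds the 250 bases before the annotated start of transcription, written 5′ to 3′ on the strand of the gene, and Il33 has 2 windows for 2 starts. The windows are shown to describe the sequence, and any link between their motifs and the changes after TNF was not tested. The following windows hold the core motif of TEAD proteins, CATTCC or its reverse complement GGAATG, or the motif of AP-1, TGANTCA, and the capitals mark these matches.
Anxa1, chr19:20390672-20390921, minus strand: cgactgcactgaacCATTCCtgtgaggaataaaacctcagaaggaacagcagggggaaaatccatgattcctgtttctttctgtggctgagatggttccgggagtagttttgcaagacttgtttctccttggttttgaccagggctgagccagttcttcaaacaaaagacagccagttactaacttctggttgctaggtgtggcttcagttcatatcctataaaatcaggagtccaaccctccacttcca
Ccn1, chr3:145649986-145650235, minus strand: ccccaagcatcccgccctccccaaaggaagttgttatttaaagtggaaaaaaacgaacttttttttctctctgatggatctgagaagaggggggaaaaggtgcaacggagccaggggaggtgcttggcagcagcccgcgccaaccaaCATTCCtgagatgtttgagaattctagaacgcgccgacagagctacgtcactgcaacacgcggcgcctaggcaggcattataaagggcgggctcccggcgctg
Il33 window 1, chr19:29924863-29925112, plus strand: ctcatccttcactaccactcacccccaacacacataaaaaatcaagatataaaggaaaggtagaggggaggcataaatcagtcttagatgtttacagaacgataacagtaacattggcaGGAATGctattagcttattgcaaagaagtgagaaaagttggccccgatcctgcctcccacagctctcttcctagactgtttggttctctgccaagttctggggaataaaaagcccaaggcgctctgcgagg
Il33 window 2, chr19:29945540-29945789, plus strand: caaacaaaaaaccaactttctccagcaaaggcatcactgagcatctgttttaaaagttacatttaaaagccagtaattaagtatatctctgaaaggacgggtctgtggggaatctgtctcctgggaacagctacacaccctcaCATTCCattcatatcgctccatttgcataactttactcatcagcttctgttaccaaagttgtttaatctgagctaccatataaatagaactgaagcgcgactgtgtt
Anxa2, chr9:69453433-69453682, plus strand: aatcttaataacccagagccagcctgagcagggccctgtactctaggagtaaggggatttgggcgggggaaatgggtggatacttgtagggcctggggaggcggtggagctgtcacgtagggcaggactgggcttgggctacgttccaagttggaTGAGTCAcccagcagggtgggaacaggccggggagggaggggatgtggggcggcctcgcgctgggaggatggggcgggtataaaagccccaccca
The TEAD letters lie 231 to 236 bases before the start of Anxa1, 98 to 103 bases before that of Ccn1, and 126 to 131 and 102 to 107 bases before the starts of Il33. The AP-1 letters of Anxa2 lie 89 to 95 bases before its start. Over 32851 windows of this length, 12.6% hold the TEAD letters and 6.75% the AP-1 letters on either strand, so a match is common and describes the sequence only. The window of S100a6 held neither of them. The STAT motif TTCNNNGAA, present in 7.02% of all windows, the kappaB motif, present in 3.9%, and the CArG motif, present in 1.47%, were in none of the 6 windows of these genes, which says only that those letters are not in these stretches.

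Of the 8 tested genes, 6 rose after TNF (Ly6a, Anxa1, Anxa2, Anxa3, Il33 and S100a6), none fell, and Clu and Ccn1 did not pass the test. The test was the quasi-likelihood test of edgeR with p-values adjusted over all 14329 tested genes, called at an adjusted p under 0.05. Read against the background, 59.6% of all tested genes were called by the same rule, 29.5% as higher and 30.1% as lower, so a call on its own is common in these data. When the change was tested against 2-fold rather than against no change, all 6 stayed called, where 8.55% of all tested genes were called higher. The median log2 fold change over all tested genes was 0.0017. These shares and this median are also the background for the gene lists below. All 4 TNF libraries lay above all 3 PBS libraries for these 6 genes, which is so for 29.9% of tested genes, and below them for Ccn1, which is so for 30.9%. The groups did not overlap for 60.7% of tested genes in all. Testing required 10 counts at the median library size in 3 libraries, which Ly6a and Il33 met through their TNF libraries and would not have met on their PBS libraries. These genes could hardly have been tested without differing, so the count of 6 is a description, and 4 of the 6 would have been tested on their PBS libraries as well.

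**Figure D1:**
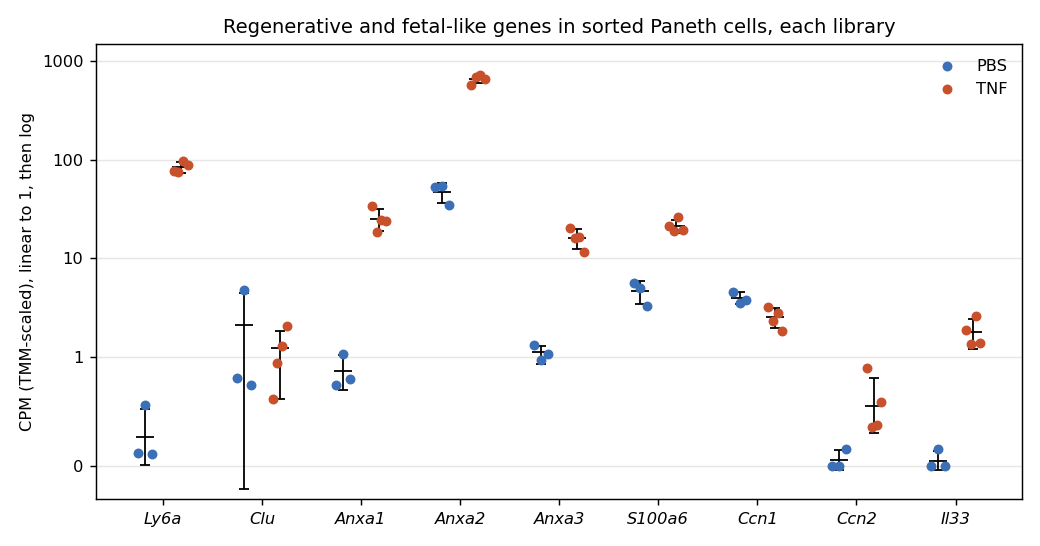
Level of each of the 9 genes in every library, in CPM (counts per 1000000) on TMM-scaled library sizes, on an axis that is linear up to 1 and logarithmic above it. Points are libraries (3 PBS, 4 TNF), horizontal ticks are group means and bars are SD, and Anxa2 runs from 34.7 to 54.5 CPM after PBS and from 576.3 to 719.6 CPM after TNF while the groups of Clu overlap.

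Total counts ran from 15511455 to 19193721 per library, and levels are given as CPM (counts per 1000000) on library sizes corrected with TMM factors, a trimmed mean of ratios between libraries. The sorted cells carried the products of PCs in every library, with Lyz1, the lysozyme of PC granules, at 85149 to 117168 CPM after PBS and 90261 to 155547 CPM after TNF (log2 fold change 0.30 ± 0.32 (SE), adjusted p = 0.444). Of 10 PC markers, 3 rose, 2 fell and 5 were not called, and their summed level ran from 184623 to 305028 CPM after PBS and from 175412 to 320208 CPM after TNF. Markers of other epithelial cells were also present: all 10 tuft cell markers and 6 of 7 tested enterocyte markers fell, as did 4 of 8 goblet cell markers and 4 of 10 enteroendocrine markers, while 1 goblet cell marker (Spdef, log2 fold change 1.44, adjusted p = 6.24e-05) and 1 enteroendocrine marker (Tac1) rose. Of 7 markers of epithelium in general, 6 rose, among them Krt19 (log2 fold change 1.84, adjusted p = 1.6e-08) and Epcam (log2 fold change 1.30, adjusted p = 7.48e-06), and Vil1 fell. Of the fallen enterocyte markers, 4 would not have passed the filter on their TNF libraries, and the calls of the enteroendocrine genes Gip, Neurog3 and Sct were lost when certain single libraries were left out. Leukocyte markers were low, with 3 of 11 (Cd3e and Mpo among them) at 0 in every library, and their summed level was 25.2 to 33.3 CPM after PBS and 16.5 to 26.7 CPM after TNF. Stromal and endothelial markers summed to 4.22 to 4.45 CPM after PBS and 8.51 to 11.1 CPM after TNF. Apart from Vwf, which rose from 2.17 to 2.53 CPM to 7.79 to 9.51 CPM, that sum was 1.85 to 2.28 CPM after PBS and 0.118 to 1.62 CPM after TNF. The erythroid markers did not pass the filter on low counts, with 4 of 6 at 0. In bulk libraries, fewer cells of a type and less RNA per cell cannot be told apart, and the part that a changed mix of cells takes in the results was not tested.

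Ly6a encodes Sca-1, a small protein anchored in the outer membrane, and is the surface marker most used for the fetal-like state. It was almost absent from control PCs, at 0.124, 0.56 and 0.106 CPM in the PBS libraries. The TNF libraries held 76.7, 74.9, 98.2 and 88.1 CPM, so every one of them exceeded the highest control by a wide margin. Over the groups this was 15 counts against 5823 counts. The log2 fold change was 8.23 ± 0.29 (SE, adjusted p = 2.61e-10), a 301-fold rise that ranked 31 among the rises of all tested genes. At these control counts the gene entered the test through the TNF libraries in which it is high, and its p and rank describe it without further weight. PBS replicate 2 held 11 of the 15 control counts, and without it the log2 fold change was 9.45. Ly6a (ENSMUSG00000075602) lies on chromosome 15, positions 74863840 to 74869880 on the minus strand of GRCm39, in a cluster of closely related Ly6 genes among which reads can be split, so counts of single Ly6 genes are uncertain.

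Of 11 other Ly6 genes, 5 could be tested, and 3 of these rose while 2 fell. The 3 that rose (Ly6c1, Ly6g and Ly6m) passed the filter on low counts through their TNF libraries alone and so had to differ once tested. Ly6c1 was at 0 in the PBS libraries and at 3.64, 3.65, 4.5 and 4.12 CPM after TNF, an increase of at least 72.6-fold against a floor of 3 counts over the PBS group, a limit that dropped to 46.5-fold when PBS replicate 2 was left out and to 47.6-fold when replicate 3 was. The 3 counts of Ly6m in the PBS group stood against 444 in the TNF group, a ratio of 117.6 (95% exact binomial interval 40.0 to 572.7, which covers counting error only). All 3 control counts came from PBS replicate 3, without which the rise was at least 77.1-fold, and leaving out PBS replicate 2 gave a ratio of 75.4. These genes lie in the same cluster as Ly6a and appeared from a nearly empty control level as Ly6a did. Ly6e, a family member expressed in many tissues, went the other way, from 398.5, 296.8 and 170.6 CPM to 122.0, 164.9, 150.4 and 158.1 CPM (log2 fold change -0.96 ± 0.24, adjusted p = 0.00668). The fall of Ly6g6d (log2 fold change -0.99 ± 0.38, adjusted p = 0.0436) was lost when any of 5 libraries was left out.

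Ly6g, best known as a neutrophil surface protein, was at 0 in the PBS libraries and at 5.71, 2.83, 3.53 and 1.11 CPM after TNF, at least 61.7-fold higher (39.6-fold when PBS replicate 2 is left out and 40.4-fold when replicate 3 is). Markers of neutrophils were examined beside it, a list added after the Ly6g value was seen. Of its 10 genes, 6 were at 0 in every library, among them Csf3r, Retnlg and Elane, and Cxcr2 had 5 counts, all after TNF. Ltf, at 8 counts over the PBS group and 116 over the TNF group, was tested through its TNF libraries alone. Cd177 rose (log2 fold change 1.46, adjusted p = 0.000757), from 30.1 to 60.1 CPM to 97.8 to 165.6 CPM. The summed level of the list was 30.3 to 60.5 CPM after PBS and 98.5 to 168 CPM after TNF, nearly all of it Cd177.

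Annexins bind acidic phospholipids of membranes in the presence of calcium, and 3 of the followed genes are annexins. Anxa2, which couples membranes to the actin cortex, was the most abundant gene of the set in both groups. It was at 53.5, 54.5 and 34.7 CPM after PBS and at 576.3, 694.0, 719.6 and 667.2 CPM after TNF, with means of 47.6 ± 11.1 CPM (SD, n = 3) in the first group and 664.3 ± 62.4 CPM (SD, n = 4) in the second. This rise was 14-fold (log2 fold change 3.80 ± 0.18, adjusted p = 9.77e-10) and ranked 263 among the rises. Across 15 alternative analyses the change stayed between 3.62 and 3.92.

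Anxa1, which limits inflammation through formyl peptide receptors, was at 0.742, 1.07 and 0.795 CPM after PBS. It was at 33.9, 18.4, 24.7 and 23.8 CPM after TNF. The groups were far apart, and the 28.6-fold rise (log2 fold change 4.84 ± 0.27, adjusted p = 5.67e-09) ranked 159. Anxa3, a further calcium-dependent phospholipid binder, was at 1.3, 0.967 and 1.06 CPM after PBS and at 20.3, 16.2, 16.3 and 11.5 CPM after TNF. Its rise was 14.5-fold (log2 fold change 3.86 ± 0.26, adjusted p = 3.42e-08, rank 253), close to that of Anxa2 although its level was far lower. Within the annotated interval of Anxa3 lies Gm42603 on the same strand, which had 0 counts in the PBS libraries and 17, 26, 10 and 25 counts after TNF. That makes 78 counts in all, beside 1119 counts of Anxa3 after TNF.

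The other annexins did not move as a block. Of 9 others, 6 could be tested, with 3 higher, 2 lower and 1 not called, and their median log2 fold change was 0.26. Anxa7 rose from 84.9, 78.9 and 73.7 CPM to 249.2, 294.6, 288.2 and 332.7 CPM (log2 fold change 1.88 ± 0.12, adjusted p = 2.24e-08). Anxa5, which binds exposed phosphatidylserine, had a log2 fold change of 0.91 ± 0.16 (adjusted p = 0.000341), and Anxa11 one of 0.79 ± 0.11 (adjusted p = 2.62e-05), both called higher. Anxa13, an annexin of intestinal epithelium, fell from 80.0, 62.1 and 48.9 CPM to 14.4, 13.8, 15.3 and 16.8 CPM (log2 fold change -2.08 ± 0.15, adjusted p = 8.06e-08). Anxa6 fell from 4.64, 3.97 and 1.64 CPM to between 0 and 0.413 CPM (log2 fold change -3.82 ± 0.68, adjusted p = 0.00025), and it was tested through its PBS libraries alone. Anxa4 was at 428.8 to 574.4 CPM after PBS and at 385.7 to 474.7 CPM after TNF and was not called (adjusted p = 0.0701), though it was called lower under scaling by total counts. It was also called lower when PBS replicate 3 (log2 fold change -0.41, adjusted p = 0.00986) or TNF replicate 3 (log2 fold change -0.35, adjusted p = 0.0422) was left out. Among the tested annexins, the larger rises belonged to Anxa1, Anxa2 and Anxa3, with Anxa7 next. Anxa8 was too low to be tested, with 0 counts after PBS and 17, 1, 3 and 0 after TNF, so its counts came mostly from TNF replicate 1 and the groups overlapped.

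S100 proteins are small calcium sensors, some of which bind annexins as partners. S100a6 was at 5.62, 5.04 and 3.29 CPM after PBS and at 21.3, 19, 26.0 and 19.3 CPM after TNF. All TNF libraries lay above the highest PBS library, and the rise was 4.62-fold (log2 fold change 2.21 ± 0.21, adjusted p = 7.8e-07, rank 649), the smallest of the 6. S100a10, which forms a heterotetramer with Anxa2, was at 23.2, 31.0 and 17.9 CPM after PBS and at 171.7, 183.4, 191.3 and 222.8 CPM after TNF (log2 fold change 3.00 ± 0.18, adjusted p = 1.89e-08). S100a11, a partner of Anxa1, was at 5.5, 8.4 and 2.23 CPM after PBS and at 44.2, 70.7, 105.2 and 95.5 CPM after TNF (log2 fold change 3.87 ± 0.51, adjusted p = 0.000519). Both partners therefore rose along with their annexins.

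Per kilobase of the canonical transcript, the mean level after TNF was 459.1 CPM for Anxa2 against 56.2 CPM for S100a10, and 14.5 CPM for Anxa1 against 33.9 CPM for S100a11. After PBS the same levels were 32.9 CPM for Anxa2, 7.03 CPM for S100a10, 0.499 CPM for Anxa1 and 2.31 CPM for S100a11. Anxa2 thus stood above its partner in every library. Anxa1 stood below its partner in 6 of 7 libraries, while in TNF replicate 1, at 19.5 CPM, it lay just above S100a11, whose TNF libraries reached 45.2 CPM and were lowest there.

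Of 13 other S100 genes, 7 were tested, of which 6 rose, none fell and only S100a13 was not called, with a median log2 fold change of 3.00. S100a14, an epithelial member, rose from 7.05, 3.72 and 3.5 CPM to 34.6, 41.8, 41.2 and 49.7 CPM (log2 fold change 3.15 ± 0.23, adjusted p = 1.51e-07). S100a9, a subunit of the antimicrobial complex calprotectin, was at 0 in the PBS libraries and at 5.76, 6.84, 3.21 and 7.85 CPM after TNF, at least 105.7-fold higher (67.7-fold when PBS replicate 2 is left out and 69.3-fold when replicate 3 is). It was tested through its TNF libraries alone, while the other 5 risen genes would have been tested on either group. Its partner S100a8 did not pass the filter, with 0 counts after PBS and 32 after TNF. Calprotectin is abundant in neutrophils, whose other markers are given above.

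**Figure D2:**
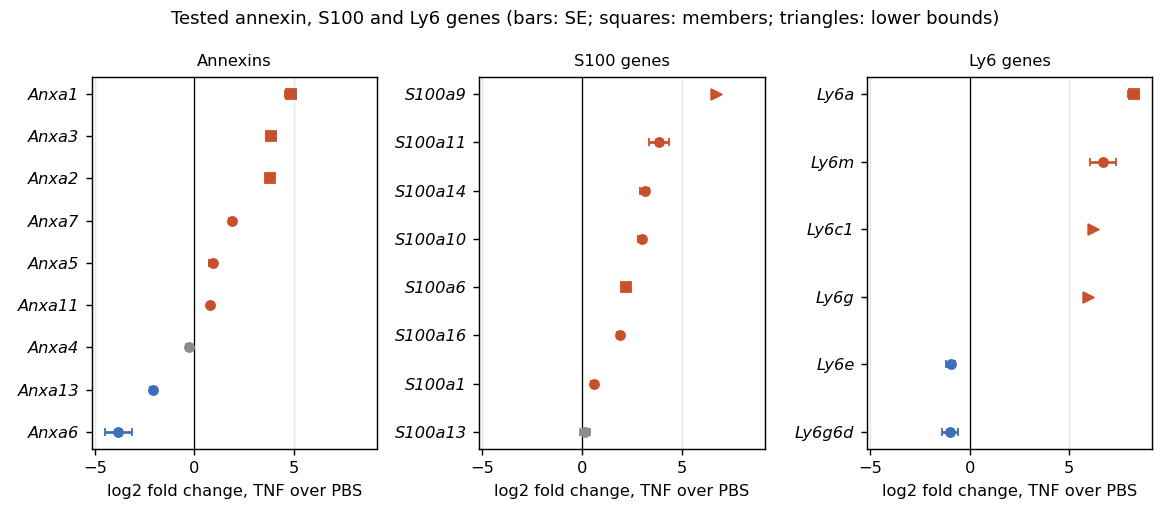
Log2 fold change (TNF over PBS) of the tested annexin, S100 and Ly6 genes, with SE bars, where squares mark the followed genes, triangles are lower bounds for genes at 0 after PBS, and orange, blue and grey stand for higher, lower and not called. Annexins spread from -3.82 for Anxa6 to 4.84 for Anxa1, while the S100 genes run from 0.15 for S100a13 upward.

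Ccn1 and Ccn2 encode secreted matricellular proteins (CYR61 and CTGF) that are induced when YAP is active. They gave values in opposite directions. Ccn1 was at 4.57, 3.51 and 3.76 CPM after PBS and at 3.19, 2.3, 2.78 and 1.83 CPM after TNF. All TNF libraries lay below all PBS libraries, yet the log2 fold change of -0.64 ± 0.31 did not pass the test (adjusted p = 0.0932), and it ran from -0.77 to -0.52 across 15 alternatives without being called.

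Ccn2 had 0, 0 and 3 counts in the PBS libraries and 16, 6, 7 and 9 counts in the TNF libraries, at most 0.895 CPM, and was not tested because of these low counts. The ratio of the group levels was 10.1 (95% exact binomial interval 3.19 to 51.0, counting error only). All of its PBS counts came from replicate 3, and without that library the rise was at least 6.6-fold, while the ratio was 6.45 without PBS replicate 2. When the filter on low counts was lifted, edgeR gave a log2 fold change of 3.19 (adjusted p = 0.0249), and DESeq2 gave 3.35 (adjusted p = 0.0216), so Ccn2 was called higher wherever it was tested. Of 4 other CCN genes, 3 were at 0 in every library and Ccn3 had 8 counts after PBS and 29 after TNF, so none was tested.

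RNA of the YAP and TAZ machinery was present in the sorted cells, with mixed directions. Of 16 pathway genes, 8 were called higher, 6 lower and 2 not at all, with a median log2 fold change of 0.31. Over all tested genes, 29.5% were called higher and 30.1% lower. Against a 2-fold change, 1 of the pathway genes was called higher and 2 lower, where 8.55% of all tested genes were called higher. Yap1 was at 61.1, 73.9 and 80.1 CPM after PBS and at 127.3, 114.9, 111.4 and 107.9 CPM after TNF (log2 fold change 0.69 ± 0.11, adjusted p = 0.000144). Wwtr1, which encodes TAZ, was at 5.56, 4.84 and 3.5 CPM after PBS and at 1.85, 2.83, 2.84 and 3.34 CPM after TNF (log2 fold change -0.77 ± 0.31, adjusted p = 0.0448), a call that was lost when PBS replicate 1 or 2 or TNF replicate 1, 2 or 3 was left out. Per kilobase of transcript, Yap1 exceeded Wwtr1 in both groups, with means of 17.1 and 0.986 CPM after PBS and 27.6 and 0.577 CPM after TNF.

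The TEAD genes, which encode the DNA-binding partners, split. Tead1 fell from 130.5, 130.2 and 115.1 CPM to 55.0, 47.8, 58.6 and 36.3 CPM (log2 fold change -1.34 ± 0.14, adjusted p = 2.74e-06). Tead2 fell from 16.1, 16 and 14.3 CPM to 4.53, 4.72, 4.39 and 4.12 CPM (log2 fold change -1.80 ± 0.17, adjusted p = 9.22e-07). Tead4 rose from 9.58, 7.74 and 6.79 CPM to 19.8, 18.9, 13.9 and 19.8 CPM (log2 fold change 1.17 ± 0.19, adjusted p = 9.21e-05). Tead3 was also called higher (log2 fold change 0.51, adjusted p = 0.0201), but not when PBS replicate 2, PBS replicate 3 or TNF replicate 2 was left out. Vgll4, which competes with YAP for TEAD, was lower (log2 fold change -0.89 ± 0.10, adjusted p = 3.42e-06).

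Among the Hippo components, Sav1, the scaffold of the kinases, rose by 1.26 ± 0.10 (adjusted p = 1.72e-07) and Amotl1, which holds YAP at cell junctions, by 1.33 ± 0.33 (adjusted p = 0.00333), both on the log2 scale. The calls for Tead3, Stk4, Mob1a and Mob1b were lost under scaling by total counts, which shifted the median of all genes by -0.16 and left 4 of the pathway genes higher and 6 lower. Leaving out PBS replicate 2 or PBS replicate 3 left 5 higher. The call for Stk4 was lost without any of 5 single libraries, and that for Mob1b without PBS replicate 2 or 3.

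Other known targets of YAP and TAZ were also divided. Of 18, 12 could be tested, with 6 higher, 3 lower and 3 not called and a median of 0.24. F3, which encodes tissue factor, the trigger of clotting, rose most, from 0.618, 0.662 and 0.53 CPM to 24.5, 11.9, 16 and 14 CPM (log2 fold change 4.77 ± 0.32, adjusted p = 3.41e-08). Gadd45b, a stress sensor also induced by NF-kB, rose by 1.96 ± 0.27 (adjusted p = 2.73e-05) and Asap1 by 1.57 ± 0.19 (adjusted p = 6.79e-06). Arhgef17 fell from 2.23, 1.37 and 0.636 CPM to between 0.161 and 0.295 CPM (log2 fold change -2.64 ± 0.63, adjusted p = 0.00251) and was tested through its PBS libraries alone. Ptpn14 fell by 1.96 ± 0.25 (adjusted p = 1.53e-05) and Myof by 0.52 ± 0.13 (adjusted p = 0.00287). Ankrd1, commonly used as a readout of YAP, had 0 counts in every library. Ajuba, Amotl2 and Nuak2 were the genes not called, though Ajuba was called lower without PBS replicate 3 (log2 fold change -1.13, adjusted p = 0.0397) or TNF replicate 1 (log2 fold change -1.39, adjusted p = 0.00294). Lats2, a kinase of the Hippo pathway, was among the 6 called higher (log2 fold change 1.44), a call that was lost without PBS replicate 1 or 2 or TNF replicate 1 or 4 (adjusted p = 0.0506 to 0.0637).

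**Figure D3:**
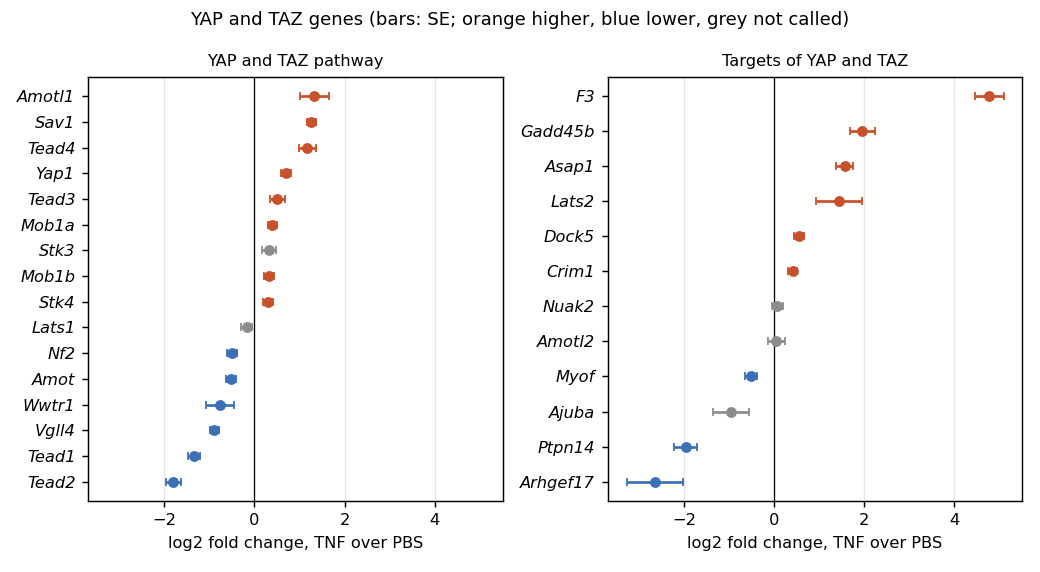
Log2 fold change (TNF over PBS) with SE bars for 16 genes of the YAP and TAZ pathway and 12 tested targets, in orange when called higher, blue when called lower and grey when not called. Both panels hold genes on either side of 0, from -1.80 for Tead2 to 1.33 for Amotl1 in the pathway and from -2.64 for Arhgef17 to 4.77 for F3 among the targets.

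Il33 was close to absent from control PCs, with 0, 3 and 0 counts in the PBS libraries. The TNF libraries held 33, 23, 49 and 21 counts, or 1.85, 1.36, 2.62 and 1.37 CPM, and none was as low as a PBS library. The ratio of the group levels was 33.4 (95% exact binomial interval 11.2 to 164.1, counting error only), and the gene was called higher with an adjusted p of 0.000215. PBS replicate 2 held all 3 control counts, and without it the rise was at least 21.4-fold, while the ratio was 21.9 without PBS replicate 3. The level after TNF was still low beside the other risen genes.

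The receptor for IL-33 was hardly seen. Il1rl1, which encodes the ligand-binding chain ST2, had 0 counts after PBS and 4 after TNF, all in TNF replicate 4. Il1rap, the chain it shares with the IL-1 receptor, rose from 15.7, 12.3 and 15.7 CPM to 29.3, 33.8, 30.8 and 31.7 CPM (log2 fold change 1.11 ± 0.13, adjusted p = 8.13e-06). It was the single gene tested out of 10 of this family in the table. Il1a and Il1b were at 0 in every library. For Il36a, 29 counts in the TNF group stood against 0 in the PBS group, and for Il36g 16 against 0, both below the filter.

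Clu, which encodes the secreted chaperone clusterin and marks the revival stem cells of irradiated crypts, did not follow the risen genes. It was at 0.804, 4.78 and 0.742 CPM after PBS and at 0.616, 0.943, 1.29 and 2.03 CPM after TNF. The groups overlapped. PBS replicate 2 lay above every TNF library, while the other PBS libraries lay between TNF replicate 1, the lowest, and TNF replicate 2. The log2 fold change was -0.81 ± 0.66 (adjusted p = 0.312). Without PBS replicate 2 its sign changed, to 0.65 (adjusted p = 0.436), and it was not called under any of 15 alternatives.

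PBS replicate 2 was also the highest library for enterocyte, tuft cell and leukocyte markers, though not for goblet or enteroendocrine markers. The summed level of 11 leukocyte markers was 25.2, 33.3 and 27.3 CPM in the PBS libraries and 16.5 to 26.7 CPM after TNF. The summed level of 10 enterocyte markers was 178.1, 266.4 and 164.1 CPM in the PBS libraries and 14.7 to 20.2 CPM after TNF, and that of 10 tuft cell markers was 1768, 2652 and 1583 CPM after PBS and 329.5 to 814.1 CPM after TNF. The summed level of 8 goblet cell markers was 14177, 7455 and 8779 CPM in the PBS libraries, with replicate 2 the lowest, and that of 10 enteroendocrine markers was 123.1, 112.3 and 50.4 CPM. Single enterocyte genes differed more, with Apoa1, an apolipoprotein, at 1.11, 22.1 and 2.39 CPM and Lct, the lactase of the brush border, at 0.0618, 10.2 and 0.901 CPM in the PBS libraries. Whether the enterocyte, tuft cell or leukocyte markers and the Clu value share a source was not tested.

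**Figure D4:**
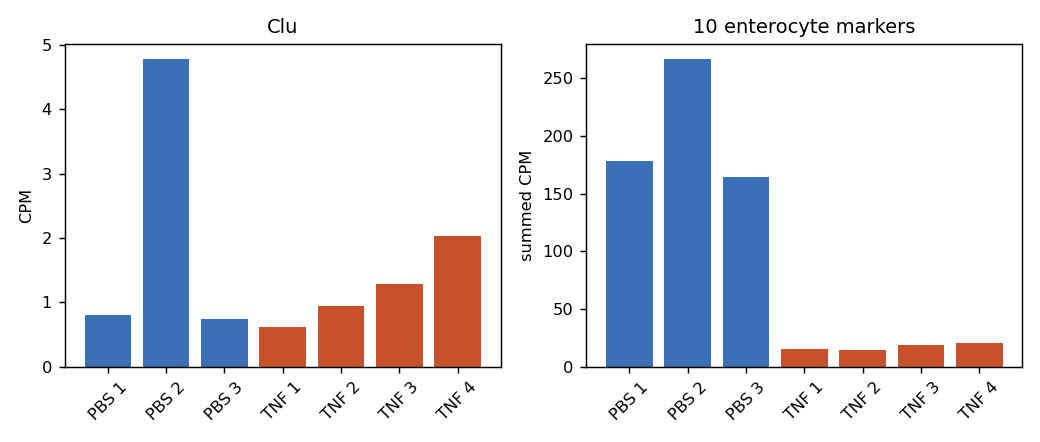
Level of Clu and summed level of 10 enterocyte markers in every library, in CPM, with bars from 0 for 3 PBS (blue) and 4 TNF (orange) libraries. PBS replicate 2 is the highest in both panels, at 4.78 CPM and 266.4 CPM, while the TNF libraries hold at most 2.03 CPM of Clu and 20.2 CPM of the markers.

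Set in order by level per kilobase of the canonical transcript, the control libraries gave Anxa2 (mean 32.9 CPM), S100a6 (5.96 CPM), Ccn1 (1.94 CPM), Clu (1.16 CPM), Anxa3 (0.668 CPM), Anxa1 (0.499 CPM), Ly6a (0.071 CPM), Ccn2 (0.0194 CPM) and Il33 (0.015 CPM). In the control group, the libraries of Ccn1 (1.73 to 2.25 CPM), Clu (0.409 to 2.63 CPM), Anxa3 (0.583 to 0.782 CPM) and Anxa1 (0.426 to 0.614 CPM) overlapped each with the next, as did those of Ly6a, Ccn2 and Il33. After TNF the order was Anxa2 (459.1 CPM), S100a6 (27.5 CPM), Ly6a (22.8 CPM), Anxa1 (14.5 CPM), Anxa3 (9.7 CPM), Ccn1 (1.24 CPM), Clu (0.671 CPM), Il33 (0.532 CPM) and Ccn2 (0.203 CPM). Ly6a moved from near the bottom to a place beside S100a6, and the libraries of these neighbours overlapped after TNF, at 20.2 to 26.5 CPM for Ly6a and 24.4 to 33.4 CPM for S100a6. With the summed length of all exons in place of the canonical transcript, Ly6a stood above S100a6 after TNF (18.2 against 9.11 CPM) and Il33 above Clu (0.291 against 0.216 CPM). With that length after PBS, Anxa1 stood above Anxa3 (0.278 against 0.179 CPM), and S100a6 and Ccn1 lay side by side (1.98 and 1.94 CPM). Anxa1 and Anxa3 also overlapped after TNF (10.6 to 19.5 and 6.94 to 12.2 CPM), as did Clu and Ccn1 (0.339 to 1.12 and 0.902 to 1.57 CPM) and Clu and Il33 (0.401 to 0.776 CPM for the latter).

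Genes of the regenerative and fetal-like state beyond the 9 mostly rose where they could be tested. Of 18, 13 were tested, with 8 higher, 1 lower and 4 not called, and their median log2 fold change was 2.87. Plaur, the receptor of urokinase, rose from 1.55, 0.916 and 1.22 CPM to 61.5, 59.3, 56.2 and 45.3 CPM (log2 fold change 5.51 ± 0.20, adjusted p = 1.62e-10). Emp1, an epithelial membrane protein, rose from 0.927, 1.53 and 1.91 CPM to 87.9, 50.3, 56.9 and 54.2 CPM (log2 fold change 5.40 ± 0.28, adjusted p = 1.01e-08). Ereg, a ligand of the EGF receptor, had 0, 0 and 0.212 CPM after PBS and 5.99, 5.01, 5.89 and 4.25 CPM after TNF (log2 fold change 6.05 ± 0.66), and without PBS replicate 3, which held all of its control counts, it was at least 63.7-fold higher. Tubb6, Il1rn, Tnfrsf12a and Cd44 rose as well, by 1.30 to 5.28 on the log2 scale, and Tubb6 by 5.87 without PBS replicate 2. Ereg and Tubb6 passed the filter through their TNF libraries alone and had to differ once tested, and Il1rn would not have passed on its PBS libraries, while the other 5 risen genes would have been tested on either group.

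Not every marker of the state followed. Krt23 was called lower (log2 fold change -0.39, adjusted p = 0.0248), a call that was lost without PBS replicate 1, PBS replicate 2 or TNF replicate 2. Krt7, Basp1, Fabp5 and Sox9, the last a transcription factor that PCs need, were not called. Krt7 was called higher without PBS replicate 1 (adjusted p = 0.00724) or TNF replicate 1 (adjusted p = 0.0427), and Sox9 without PBS replicate 2 (adjusted p = 0.0372) or TNF replicate 1 (adjusted p = 0.0151). Msln was at 0 in every library, and Sprr1a had 1 count in all.

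Markers of crypt base stem cells went down over the same contrast. Of 10, 9 fell, none rose and Slc12a2 was not called, with a median log2 fold change of -1.32. Lgr5, the receptor that marks these cells, was at 149.3, 145.5 and 168.7 CPM after PBS and at 37.8, 28.4, 33.1 and 24.0 CPM after TNF (log2 fold change -2.32 ± 0.14, adjusted p = 1.11e-08). Ascl2, a transcription factor of the stem cell state, fell from 12.5, 16 and 13.2 CPM to 0.616, 0.884, 0.482 and 0.196 CPM (log2 fold change -4.65 ± 0.33, adjusted p = 4.79e-08), a gene that would not have passed the filter on its TNF libraries. Rgmb, a co-receptor of bone morphogenetic proteins, fell from 350.8, 306.5 and 355.1 CPM to 64.0, 64.1, 64.8 and 62.6 CPM (log2 fold change -2.40 ± 0.10, adjusted p = 3.85e-10). Olfm4 was at 2032, 2328 and 3126 CPM after PBS and at 1414, 816, 1065 and 1387 CPM after TNF (log2 fold change -1.09 ± 0.21, adjusted p = 0.000432). The share of these RNAs that came from stem cells among the sorted cells, and not from PCs, was not tested.

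**Figure D5:**
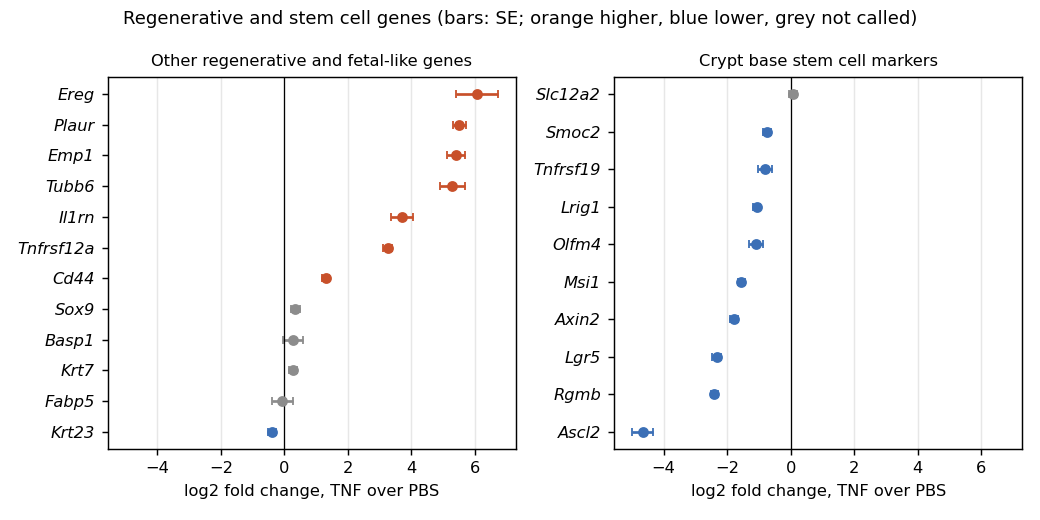
Log2 fold change (TNF over PBS) with SE bars for 12 of the 13 tested genes of the regenerative and fetal-like state (left) and 10 crypt base stem cell markers (right), in orange when called higher, blue when called lower and grey when not called. The left panel reaches 6.05 for Ereg, with Krt23 as its single gene called lower. The right panel reaches -4.65 for Ascl2 with no rise called.

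The annotated intervals of the 9 genes overlap 9 other genes of the count table, 3 of which had no count in any library. Apart from Gm42603 in Anxa3, the largest total was 50 counts, for Mir3109 within Anxa2. Positions on GRCm39 were chromosome 14, 66190200 to 66218999 (plus strand) for Clu (ENSMUSG00000022037), chromosome 19, 20350792 to 20368374 (minus strand) for Anxa1 (ENSMUSG00000024659), chromosome 9, 69360542 to 69399077 (plus strand) for Anxa2 (ENSMUSG00000032231), and chromosome 5, 96940544 to 96993828 (plus strand) for Anxa3 (ENSMUSG00000029484). Ccn1 (ENSMUSG00000028195) lies on chromosome 3, 145352720 to 145355738 (minus strand), S100a6 (ENSMUSG00000001025) on chromosome 3, 90520140 to 90535843 (plus strand), Ccn2 (ENSMUSG00000019997) on chromosome 10, 24471333 to 24474900 (plus strand), and Il33 (ENSMUSG00000024810) on chromosome 19, 29902483 to 29938933 (plus strand).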

How the data were processed

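The authors deposited raw counts, whole numbers of reads per Ensembl gene with 1 column per library. The submitters' processing notes name FastQC, Trimmomatic 0.39, STAR 2.7.10a and DESeq2 and the builds mm10 and mm39. The sources used here do not say which build, annotation, counting program and strand setting gave the counts, so counts of overlapping genes are uncertain and coordinates describe annotated genes. Symbols and GRCm39 positions came from GENCODE M39, by identifier (54742 of 55414, 98.8%). Promoter windows came from RefSeq on GRCm38.p6.

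Counts were fitted with edgeR 4.0.16 under R 4.3.3 (quasi-likelihood test, robust, two-sided), TNF against PBS over all 7 libraries without covariates, after filterByExpr (at least 10 counts at the median library size in 3 libraries, 14329 genes) and TMM scaling. P-values were adjusted over all tested genes by the Benjamini-Hochberg method, and the threshold was 0.05. CPM are counts per 1000000 on scaled library sizes. SE came from the fitted change and its F statistic. Folds against 0 counts use a floor of 3 counts over the PBS group, and for 1 to 3 counts the ratio has a 95% exact binomial interval. Both cover counting error only. Replicate libraries of a group differed beyond sampling noise. Lists are described by counts and medians without a test. The script was tested on simulated data.

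The 9 genes, the lists and the naming rule were chosen with earlier results of these data known. Named were the 9 genes, up to 3 rises and 3 falls per list among called genes whose groups do not overlap, and Yap1, Wwtr1, S100a10, S100a11, Ly6c1, Ly6e, Il1rl1, Lgr5, Olfm4 and Lyz1. A few genes that the lists or the rule hold are counted but not reported here. Other names illustrate a count and were chosen after their values were seen. For those of the 9 that averaged 1 CPM or more, the 2 genes of most similar profile were named as well, out of tested genes averaging 10 CPM or more. Alternatives were DESeq2 1.42.0 and its size factors, total counts, scaling without defensins and Lyz1, other filters, a test against 2-fold (glmTreat), the replicate number as a block, and leaving out each library.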

Additional observations from a re-analysis of the deposited data

Results flagged for a closer look

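Within the TNF group of 4 libraries, 1 library stood apart from the others for 3 of the 47 named genes, judged by the gap to its nearest neighbour over the range of the group (Dixon's ratio, at its 95% limit), where chance alone gives about 1 in 20. Tead4 was lowest in TNF replicate 3, at 13.9 CPM against 18.9 to 19.8 CPM (ratio 0.846). Anxa5 was lowest in TNF replicate 1, at 43.9 CPM against 59.1 to 59.4 CPM (ratio 0.981). Il1rl1 was seen in TNF replicate 4 alone, at 0.262 CPM, or 4 counts. None of these libraries reached the PBS range of Tead4 or Anxa5, and leaving out any single library did not end the call of either gene.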

How the results depend on the processing

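The number of tested genes called was 8543 (4229 higher, 4314 lower), and it fell to 2661 (1225 higher, 1436 lower) when the test was against a 2-fold change. It ran from 7663 to 8625 when 1 library was left out. Ly6a, Anxa1, Anxa2, Anxa3, Il33 and S100a6 were called higher under all 15 alternatives, and Ccn2 joined them with DESeq2 and without a filter on low counts, the 2 settings in which it was tested. Clu was called under none of them, and its log2 fold change ran from -1.22 to 0.65 with 1 library left out, positive only without PBS replicate 2. Scaling by total counts moved the median of all genes to -0.16 and gave 3142 higher and 4614 lower. It left 4 of the 8 pathway genes of YAP and TAZ and 4 of 6 targets called higher, and 5 in place of 2 PC markers were called lower. Under the 2-fold test, 1 pathway gene was called higher and 2 lower, 3 targets and 1 other annexin were called higher, 5 stem cell markers lower, and no other Ly6 gene or Krt23 lower. Among the IL-1 family and the IL-33 receptor, 3 genes were called higher with DESeq2 or without a filter and 2 without any 1 PBS library, in place of 1. With the replicate number as a block, which leaves TNF replicate 4 without a partner, 7131 genes were called and the same 6 genes rose. Krt23 and 1 of the 2 lower Ly6 genes lost their calls under the block, and the pathway genes of YAP and TAZ had 6 higher and 5 lower. Libraries of the same number did not deviate together (correlations -0.299, -0.031 and -0.174), so the number was not taken as a pairing. Depth limits Ccn2, Il33 and Il1rl1, which had 3 counts or fewer after PBS.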

Other observations

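For those of the 9 genes that averaged 1 CPM or more, the most similar profiles over the 7 libraries were looked up among 8431 tested genes averaging 10 CPM or more, as a description only. The 7 points of each Pearson r (log2 CPM) share the split into 2 groups, so a high r is common among genes that changed. Cd14, the co-receptor for bacterial lipopolysaccharide, and Nras were nearest to Ly6a (r = 0.999 for both). Cd14 rose by 2.83 on the log2 scale (adjusted p = 8.59e-09 in edgeR). Snx4 and Zc3hav1, an antiviral zinc finger protein, were nearest to Anxa2, Pafah1b2 and Fpgt to Anxa1, Ankfy1 and Pogk to Anxa3, Tle3 and Ddah1 to Il33, and Snapc2 was among the nearest to S100a6, with r from 0.997 upward. The profile of Ccn1 was nearest to Usp32 (r = 0.987) and Zfp609 (r = 0.986). The profile of Clu, with its single high PBS library, was nearest to Sap18 (r = 0.945) and Mocs2 (r = 0.927), neither of which changed after TNF by more than 0.01 on the log2 scale.

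Vwf, known as a product of endothelial cells, rose from 2.53, 2.19 and 2.17 CPM to 9.51, 8.96, 7.87 and 7.79 CPM (log2 fold change 1.89 ± 0.23, adjusted p = 9.9e-06), while the endothelial genes Kdr and Cdh5 had 0 and 1 count over all libraries. Tac1, which encodes substance P and stands among the enteroendocrine markers, rose from 2.72, 2.09 and 0.318 CPM to 38.8, 35.6, 32.5 and 57.6 CPM (log2 fold change 4.61 ± 0.49, adjusted p = 6.93e-05), and it would not have passed the filter on low counts on its PBS libraries. Chgb of the same list fell (log2 fold change -2.44 ± 0.52, adjusted p = 0.00437). Both genes were picked after their values were seen.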
